A study of Mus musculus with 2 samples.

Results

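The genes described here are 7 of the 28692 genes listed in the count matrices, and all are concerned with cellular iron: Fth1, Ftl1, Slc40a1, Slc11a1, Tfrc, Steap4 and Ireb2. They were taken by symbol and not by any measured level. Their transcripts were counted in single GR-1+ myeloid cells from 4T1 tumors, a mouse triple negative mammary carcinoma line, grown in the mammary fat pad of female BALB/c mice that were 8 to 10 weeks old. One tumor type was the parental, immunotherapy-resistant 4T1p, and the other was 4T1m, a polyclonal line obtained by exposing 4T1 cells to the mutagen MNNG and responsive to immunotherapy. Both groups of mice received anti-PD1, so that no untreated library enters the comparison, and tumors were taken after 2 weeks of treatment. Cells were isolated with magnetic beads against GR-1, a surface epitope shared by Ly6G and Ly6C, and each tumor type gave 1 library on the 10x Genomics 3′ platform. How many mice were pooled into each library is not given in the sources used here. With 1 library per tumor type there is no replicate error and no test, and the intervals below, all at 95%, cover counting error only.

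Ferritin, the cytosolic iron store, is a shell built from heavy chains (Fth1), which oxidize iron, and light chains (Ftl1), which promote its mineralization. Iron enters most cells as transferrin bound to the transferrin receptor (Tfrc), is reduced by metalloreductases of the STEAP family such as Steap4, is moved out of phagosomes by the divalent metal transporter Slc11a1 (NRAMP1), and leaves the cell through ferroportin (Slc40a1). Iron regulatory proteins, of which Ireb2 encodes IRP2, bind hairpins called iron-responsive elements when iron is scarce, which blocks translation of messages that carry the hairpin in the 5′ UTR and stabilizes the Tfrc message, which carries it in the 3′ UTR. BALB/c mice carry the loss-of-function allele of Slc11a1, so that its transcript does not stand for a working transporter in these animals.

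The hairpins are shown because they divide the 7 genes by the side of the message on which they can be regulated. A search of annotated mouse transcripts (GRCm38, GENCODE vM21, the C57BL/6J reference and not these BALB/c animals) for the 6-base loop CAGTGN, closed by 5 paired bases with G-T pairs allowed and with a bulged C 5 bases before the loop, found the following, printed 5′ to 3′ on the strand of the message with the loop in capitals.
Fth1 5′ UTR: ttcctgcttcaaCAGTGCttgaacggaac
Ftl1 5′ UTR: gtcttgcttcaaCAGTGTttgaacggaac
Slc40a1 5′ UTR: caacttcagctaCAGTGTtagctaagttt
Tfrc 3′ UTR, site 1: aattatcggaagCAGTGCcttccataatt
Tfrc 3′ UTR, site 2: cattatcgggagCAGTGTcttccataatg
Tfrc 3′ UTR, site 3: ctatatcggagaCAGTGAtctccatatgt
Tfrc 3′ UTR, site 4: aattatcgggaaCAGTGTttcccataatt
These lie at chr19:9982732-9982760 (plus strand) in Fth1, chr7:45459779-45459807 (minus strand) in Ftl1 and chr1:45925465-45925493 (minus strand) in Slc40a1. The 4 hairpins of Tfrc lie on the plus strand at chr16:32631219-32631247, chr16:32631598-32631626, chr16:32631663-32631691 and chr16:32631710-32631738. The same letters were found in the 5′ UTR of 0.0914% and in the 3′ UTR of 0.539% of 21877 genes with a protein-coding transcript. No match was found in the UTRs of Slc11a1 (chr1:74375195-74386062), Steap4 (chr5:7960457-7982213) or Ireb2 (chr9:54863789-54912530), which says only that these letters are not there. The counts that follow measure messages, on which translation through a 5′ hairpin leaves no mark.

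There were 1641 barcodes with 9021132 UMIs in the library labelled 4T1p (4T1p below) and 2749 barcodes with 14840190 UMIs in that labelled 4T1m (4T1m below), and no barcode occurred in both. Median UMIs per barcode were 2066 and 2763, and each median is the one that the methods of the study give for the other tumor type. Which library came from which tumor was not tested, each is called by its label, and were the labels exchanged, each difference between 4T1m and 4T1p given here would change sign. After limits on genes, UMIs and mitochondrial share and removal of likely doublets, 1115 and 2048 cells remained. They formed 11 clusters, of which 5 were monocytic-like by markers such as Csf1r, Apoe and C1qa (863 cells in 4T1p and 993 in 4T1m) and 4 were granulocytic-like by markers such as S100a8, S100a9 and Cxcr2 (244 and 1001 cells). In 3 monocytic-like clusters, numbers 0, 4 and 7, a UMI of the pan-leukocyte gene Ptprc was found in 17.3% to 27.6% of cells, against 85.3% and 91.0% in clusters 5 and 1, and median depth was 924 to 1428 UMIs against 13880 and 10562. Granulocytic-like clusters 6 and 2, at median depths of 1619 and 2048 UMIs, had a Ptprc UMI in 86.9% and 74.5% of cells. Clusters 0, 4 and 7 hold 537, 366 and 187 of the 1856 monocytic-like cells, so that monocytic-like shares and values per cell include them. A further 35 B cell-like and 27 T cell-like cells are used as a measure of free RNA, which holds only for genes that these cells do not express themselves. Tfrc, at 61.9 CPM, stood higher in them than in either myeloid lineage. Ireb2 did too, at 34.1 CPM (17.0 to 61.0) on 11 UMIs, so they give no such measure for either gene. Clusters are named by number and leading genes, and the 7 genes were kept out of the genes used for clustering.

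Levels are the summed UMIs of a gene per 1000000 UMIs of a group (CPM), which at the 3′ end count each message once whatever its length. Between the lineages, each summed over its clusters, granulocytic-like cells held the higher level of Fth1, Slc40a1, Tfrc and Steap4 in both libraries. Slc11a1 and Ftl1 differed by under 2-fold between lineages in each library, and Ireb2 was at least 2-fold higher in monocytic-like cells in 4T1m alone. At least 2-fold lower in monocytic-like cells were 4 of 7 in 4T1p, where 11.1% of 7091 genes with at least 50 UMIs were, and 4 of 7 in 4T1m, against 10.5% of 8501 genes. At least 2-fold higher were 0 of 7 in 4T1p, against 50.8% of genes, and 1 of 7 in 4T1m, against 54.8%. In either direction the counts of 4 and 5 compare with 61.9% and 65.3% of all genes. The median log2 ratio, monocytic-like over granulocytic-like, was -1.09 over the 7 genes and 1.04 over all genes in 4T1p, and -1.03 and 1.24 in 4T1m.

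**Figure D1:**
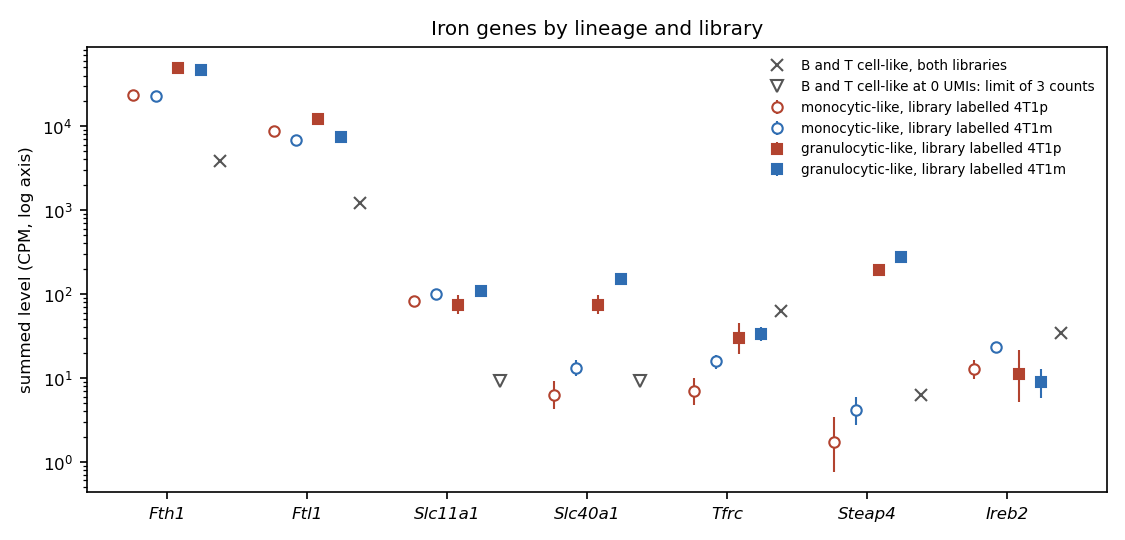
Summed level of each gene in CPM on a log axis, by lineage (circles monocytic-like, squares granulocytic-like) and library (red 4T1p, blue 4T1m), with bars for exact Poisson 95% intervals and grey marks for B and T cell-like cells. Slc40a1 and Steap4 stand more than 10-fold higher in both granulocytic-like groups, while the 4 groups of Slc11a1 lie between 74.9 and 109 CPM.

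Fth1, the ferritin heavy chain, was the most abundant transcript of monocytic-like cells and ranked 3 among all genes in granulocytic-like cells. It stood at 23261 CPM (23122 to 23401) in monocytic-like cells of 4T1p and 22687 CPM (22576 to 22799) in those of 4T1m, and at 49688 CPM (49201 to 50179) and 46246 CPM (46006 to 46488) in granulocytic-like cells. The groups of the 2 lineages did not overlap, and Fth1 made up 2.29% of monocytic-like and 4.70% of granulocytic-like UMIs. Single clusters did not all keep this order. In granulocytic-like cluster 8 of 4T1p, with 24 cells, Fth1 and Ftl1 together took 2.63% of UMIs, while monocytic-like cluster 0 of 4T1p held 31920 CPM of Fth1 alone. The log2 ratio of monocytic-like over granulocytic-like was -1.09 (-1.11 to -1.08) in 4T1p and -1.03 (-1.04 to -1.02) in 4T1m, so that it lay just past 2-fold. Under the other settings tried the ratio ran from -1.26 to -0.90 in 4T1p and from -1.09 to -0.86 in 4T1m, and some of them took it below 2-fold. Counted per cell instead of as CPM, the order of the lineages depended on the library, with 124 UMIs in a monocytic-like and 163 in a granulocytic-like cell of 4T1p, and 159.8 and 141 in 4T1m. Median depth changed order as well, at 1600 and 2715 UMIs in monocytic-like and granulocytic-like cells of 4T1p, and 3344 and 2483 in 4T1m. The Fth1 values per cell are means, however, and mean depth was higher in monocytic-like cells of both libraries. In 4T1p these held 4584710 UMIs over 863 cells, against 801477 over 244 granulocytic-like cells. In 4T1m the sums were 6992868 UMIs over 993 cells and 3057284 over 1001. The part of depth, and of the low-depth clusters 0, 4 and 7, in the order per cell was not tested. B and T cell-like cells held 3837 CPM (3626 to 4057), below every myeloid group.

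Ftl1, the ferritin light chain, was closer between lineages. Its level was 8690.2 CPM (8605 to 8776) and 6735 CPM (6675 to 6797) in monocytic-like cells of 4T1p and 4T1m, and 12007 CPM (11768 to 12249) and 7449.7 CPM (7353 to 7547) in granulocytic-like cells. The monocytic-like group of 4T1p lay above the granulocytic-like group of 4T1m, so the lineages overlapped, with log2 ratios of -0.47 (-0.50 to -0.43) in 4T1p and -0.15 (-0.17 to -0.12) in 4T1m. Under the other settings tried these ran from -0.65 to -0.20 in 4T1p and from -0.40 to 0.08 in 4T1m. The sign in 4T1m thus depended on the setting. Heavy chain messages therefore outnumbered light chain messages by a different factor in each lineage. Fth1 UMIs per Ftl1 UMI were 2.68 and 3.37 in monocytic-like cells of 4T1p and 4T1m, and 4.14 and 6.21 in granulocytic-like cells. Both ferritin genes have pseudogene copies in the mouse genome, and the deposited counts do not show how reads that match several copies were counted. Their absolute levels, and the number of Fth1 UMIs per Ftl1 UMI, carry that uncertainty.

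Slc40a1, the iron exporter, was a granulocytic-like transcript in these tumors. Monocytic-like cells held 6.33 CPM (4.24 to 9.08) in 4T1p and 13.2 CPM (10.6 to 16.1) in 4T1m, and granulocytic-like cells 74.9 CPM (57.1 to 96.4) and 150.5 CPM (137 to 165). The lineages did not overlap, and granulocytic-like cells were 11.8-fold higher in 4T1p and 11.4-fold higher in 4T1m, log2 ratios of -3.57 (-4.26 to -2.90) and -3.52 (-3.85 to -3.19). A Slc40a1 UMI was seen in 25.4% of granulocytic-like and 3.39% of monocytic-like cells, at median depths of 2535 and 2198 UMIs. At an even depth of 1000 UMIs a cell, reached by random thinning without the 102 and 545 cells that had fewer, these became 12.8% and 1.07%. None of the 62 B and T cell-like cells held one, which allows a level of up to 9.29 CPM at 3 counts over both libraries pooled, close to the monocytic-like level.

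Steap4, a metalloreductase, showed the widest gap between lineages among the 7 genes. Its level was 195 CPM (165 to 228) and 273 CPM (255 to 293) in granulocytic-like cells of 4T1p and 4T1m, against 1.74 CPM (0.753 to 3.44) and 4.15 CPM (2.78 to 5.96) in monocytic-like cells. The log2 ratio was -6.80 (-8.04 to -5.79) in 4T1p and -6.04 (-6.63 to -5.51) in 4T1m. A Steap4 UMI was found in 33.98% of granulocytic-like and 1.08% of monocytic-like cells, and in 3.23% of B and T cell-like cells at their median of 4182 UMIs. Thinned to 1000 UMIs, the first 2 shares were 19.2% and 0.381%. The lymphocyte share rests on 2 of 62 cells, and after thinning it was 0% of 61 cells with an upper limit of 5.87%. Steap4 in monocytic-like cells and free RNA cannot be told apart at this depth.

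Tfrc, the receptor for transferrin, was low throughout. Monocytic-like cells held 6.98 CPM (4.77 to 9.85) in 4T1p and 15.7 CPM (12.9 to 18.96) in 4T1m, and granulocytic-like cells 29.9 CPM (19.2 to 44.6) and 33.7 CPM (27.5 to 40.9). The sums of the lineages did not overlap within their intervals, with log2 ratios of -2.10 (-2.91 to -1.27) and -1.10 (-1.50 to -0.70), the first of which rests on 56 UMIs in all. Single clusters did not all keep this order, with 11.8 CPM in granulocytic-like cluster 8 and 21.7 CPM in monocytic-like cluster 7 over both libraries. B and T cell-like cells, at 61.9 CPM (37.8 to 95.7), lay above both lineages. Per cell, Tfrc was 0.0371 UMIs in monocytic-like and 0.0984 in granulocytic-like cells of 4T1p, and 0.111 and 0.103 in 4T1m.

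Slc11a1, the phagosomal metal transporter, was held at like levels by both lineages. It stood at 81.4 CPM (73.3 to 90.05) and 98.8 CPM (91.6 to 106) in monocytic-like cells of 4T1p and 4T1m, and at 74.9 CPM (57.1 to 96.4) and 109 CPM (97.5 to 121) in granulocytic-like cells. The groups overlapped, and the intervals of both log2 ratios, 0.12 (-0.28 to 0.54) and -0.14 (-0.33 to 0.05), held 0. No UMI was found in B and T cell-like cells, so that among the 7 genes Slc11a1 was shared by the myeloid lineages and not detected in these lymphocytes, with a limit at 3 counts of 9.29 CPM. Ireb2, the message of IRP2, stood at 12.7 CPM (9.61 to 16.4) and 23.2 CPM (19.7 to 27.02) in monocytic-like cells and at 11.2 CPM (5.13 to 21.3) and 8.83 CPM (5.82 to 12.8) in granulocytic-like cells. Its log2 ratio was 1.39 (0.80 to 2.04) in 4T1m, and 0.17 (-0.85 to 1.37) in 4T1p, where 9 granulocytic-like UMIs leave the difference undetermined.

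Within the granulocytic-like cells the ferritin genes differed by cluster. Cluster 2, led by Ccdc126, Ciart and Tnfrsf23, held 68892 CPM (68363 to 69424) of Fth1 over both libraries, cluster 3 (Mirt1, Hdc, Il1f9) 51651 CPM (51236 to 52068), cluster 6 (Slc2a3, Steap4, Prok2) 35506 CPM (35022 to 35995) and cluster 8, which is led by the granule genes Camp, Ngp and Ltf, 30657 CPM (30344 to 30974). The same 2 clusters were highest and lowest for Ftl1, at 15926 CPM (15672 to 16183) in cluster 2 and 2982 CPM (2884 to 3081) in cluster 8, with cluster 6 at 8804 CPM (8564 to 9049) and cluster 3 at 7628 CPM (7469.5 to 7790.0). The highest level over the lowest was 2.25-fold for Fth1 and 5.34-fold for Ftl1. Cluster 2 was above cluster 3 for both genes in each library taken alone.

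**Figure D2:**
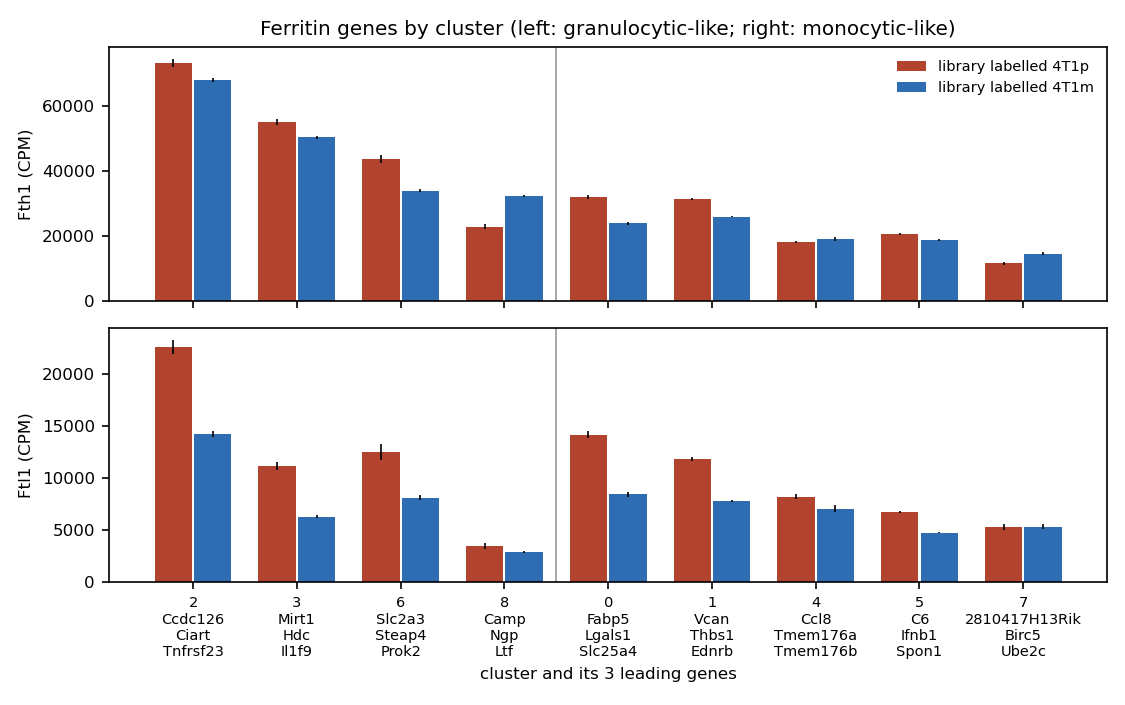
Levels of Fth1 (top) and Ftl1 (bottom) in CPM, by cluster, with the 4 granulocytic-like clusters to the left of the grey line and the 5 monocytic-like clusters to its right, as bars for the libraries labelled 4T1p (red) and 4T1m (blue) with exact Poisson 95% intervals. Cluster 2 is highest for both genes, and the Ftl1 bar of 4T1m is below that of 4T1p in every cluster except number 7.

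The balance of the 2 chains also differed by cluster. Fth1 UMIs per Ftl1 UMI were 10.3 (9.93 to 10.6) in cluster 8, 6.77 (6.62 to 6.93) in cluster 3, 4.33 (4.25 to 4.40) in cluster 2 and 4.03 (3.91 to 4.16) in cluster 6, with no overlap of intervals over both libraries. This order also held in 4T1m, while in 4T1p clusters 6 and 2 overlapped, at 3.49 (3.27 to 3.73) and 3.23 (3.12 to 3.35). Among the monocytic-like clusters the ratio ran from 2.34 in cluster 4 (Ccl8, Tmem176a, Tmem176b) to 3.41 in cluster 5 (C6, Ifnb1, Spon1). Cluster 8 of 4T1m gave the largest value of all groups, 11.2 (10.8 to 11.6), and cluster 8 of 4T1p gave 6.59 (6.09 to 7.14) from 24 cells.

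Monocytic-like clusters spanned a narrower range of ferritin. Over both libraries Fth1 was 27215 CPM (26904 to 27528) in cluster 0 (Fabp5, Lgals1, Slc25a4), 27100.3 CPM (26950.2 to 27251) in cluster 1 (Vcan, Thbs1, Ednrb), 19684 CPM (19554 to 19814) in cluster 5, 18370.1 CPM (18074 to 18669.8) in cluster 4 and 13285 CPM (12995 to 13581) in cluster 7, which is led by the cell division genes 2810417H13Rik, Birc5 and Ube2c. The intervals of clusters 0 and 1 overlapped, while in 4T1m alone cluster 1 was above cluster 0, 25923 CPM (25757 to 26091) against 23881 CPM (23501 to 24265). Clusters 4 and 5 overlapped in 4T1m, at 19018 CPM (18478 to 19569) and 18728 CPM (18547 to 18911). Over both libraries Ftl1 ran from 10822 CPM (10627 to 11020.5) in cluster 0 to 5302 CPM (5119 to 5489.6) in cluster 7, but in 4T1m its lowest level was that of cluster 5, 4757 CPM (4666 to 4849.6), below cluster 7 with 5310.1 CPM (5070.4 to 5558).

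A share of all UMIs and a number of UMIs per cell order these clusters differently. Clusters 1 and 5, whose cells carry the most RNA, held 297 and 256 Fth1 UMIs per cell, above the 212 of cluster 8 and the 166 of cluster 2. Cluster 2 led as a share of UMIs and cluster 1 led per cell. Single cells within a cluster were also spread widely. Among cells of cluster 2 with at least 1000 UMIs, Fth1 took 2.73% of UMIs at the tenth percentile, 6.56% at the median and 11.5% at the ninetieth, and in cluster 1 the same figures were 0.669%, 1.97% and 4.90%.

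**Figure D3:**
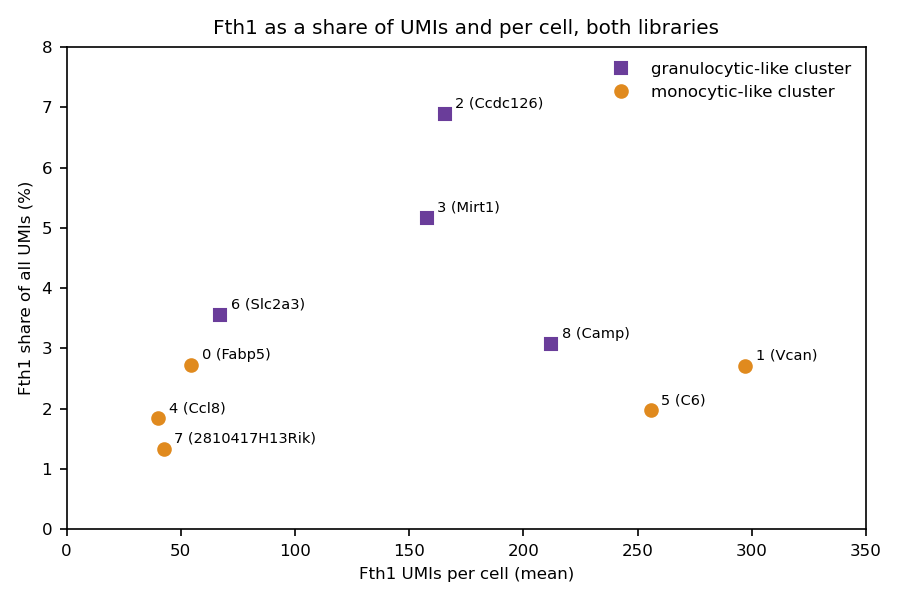
Fth1 in each cluster over both libraries, as its share of all UMIs in percent (vertical axis) against its mean UMIs per cell (horizontal axis), with squares for granulocytic-like and circles for monocytic-like clusters. Cluster 2 is highest on the vertical axis and cluster 1 farthest right on the horizontal axis.

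The transport genes divided the granulocytic-like clusters in other ways. Slc40a1 was highest in clusters 6 and 2, at 218 CPM (182 to 259) and 218 CPM (189 to 249.5), and lower in clusters 3 and 8, at 81.04 CPM (65.4 to 99.3) and 80.6 CPM (65.3 to 98.4). Within each of these pairs the intervals overlapped, and between the pairs they did not. The order rests on 4T1m for cluster 2, since in 4T1p that cluster held 69.7 CPM (37.1 to 119), no more than cluster 3 with 66.3 CPM (41.1 to 101). Steap4 separated the 2 clusters that were alike in Slc40a1, with 541 CPM (483 to 605) in cluster 6 and 52.01 CPM (38.5 to 68.8) in cluster 2, while clusters 3 and 8 held 317 CPM (285 to 352) and 223 CPM (197 to 252). All 4 levels differed beyond their intervals. Steap4 was the second leading gene of cluster 6 although it took no part in the clustering.

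Tfrc was also highest in cluster 2. Cluster 2 held 63.7 CPM (48.6 to 81.98), cluster 3 33.99 CPM (24.2 to 46.5), cluster 6 24.2 CPM (13.2 to 40.6) and cluster 8 11.8 CPM (6.43 to 19.7), from 14 UMIs in each of the last pair. Cluster 2 lay above each of the others beyond its interval, while clusters 3 and 6, and clusters 6 and 8, overlapped. The place of cluster 2 rests on 4T1m, with 71.5 CPM, since in 4T1p it held 32.2 CPM on 6 UMIs, below cluster 3 with 41.1 CPM. Slc11a1 ran from 63.7 CPM (48.6 to 81.98) in cluster 2 to 132 CPM (112 to 155) in cluster 3, and Ireb2 had only 36 UMIs over all granulocytic-like cells. Of the 6 genes with at least 50 UMIs in granulocytic-like cells, all 6 spanned at least 2-fold between clusters, Slc11a1 by the least (2.08-fold), where 67.3% of 4367 genes with as many UMIs did.

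**Figure D4:**
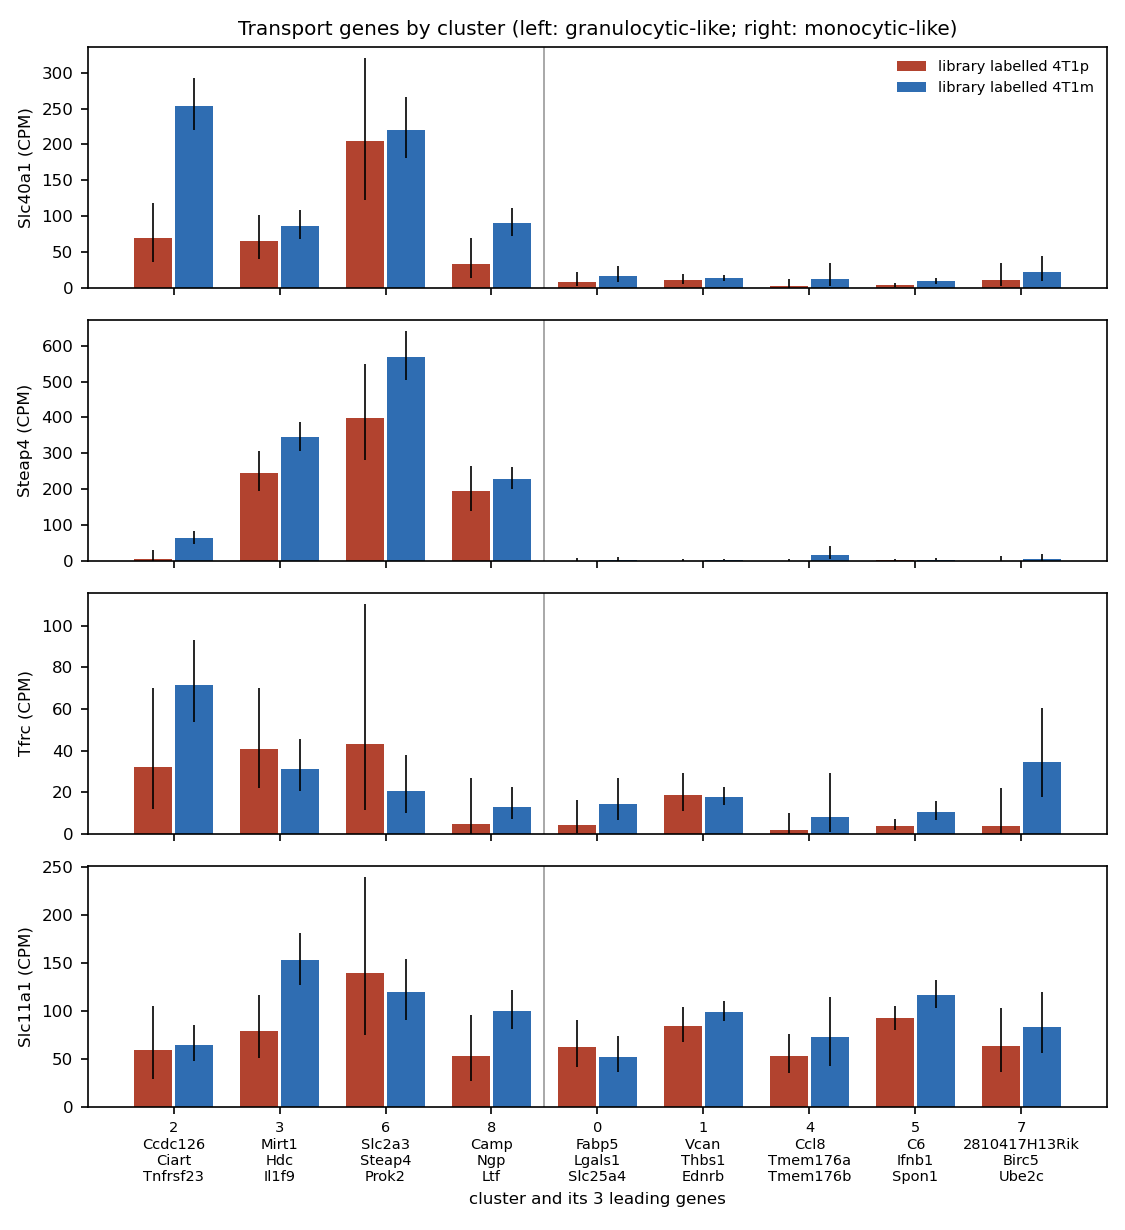
Levels of Slc40a1, Steap4, Tfrc and Slc11a1 in CPM (top to bottom), by cluster and library as bars with exact Poisson 95% intervals, granulocytic-like clusters to the left of the grey line. Slc40a1 and Steap4 are near 0 in all monocytic-like clusters, Steap4 is low in cluster 2 where Slc40a1 of 4T1m is high, and Slc11a1 is spread over all 9 clusters.

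Among monocytic-like clusters these genes were low. Tfrc was 18.02 CPM (14.4 to 22.3) in cluster 1, 21.7 CPM (11.6 to 37.2) in the dividing cluster 7 and 7.12 CPM (4.87 to 10.05) in cluster 5. Cluster 1 and cluster 5 differed beyond their intervals, and cluster 7 overlapped with cluster 1. Slc40a1 lay between 6.26 and 18.4 CPM on 5 to 60 UMIs a cluster, Slc11a1 between 56.6 and 104 CPM, and Ireb2 between 5.01 CPM in cluster 4 and 25.05 CPM in cluster 0. At least 2-fold between clusters were 5 of the 6 genes with 50 UMIs or more, against 67.7% of 9000 genes, with Fth1 and Ftl1 only just past it.

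At a finer clustering (resolution 1.2, 14 clusters) a pair of granulocytic-like clusters had Ccdc126 and Ciart among their leading genes. One of 201 cells, led by Ccdc126, Ciart and Ppp1r3b, held 332 CPM of Slc40a1, 19478 CPM of Ftl1 and 92.8 CPM of Tfrc. The other, of 219 cells and led by Mreg, Ccdc126 and Echdc3, held 158, 13803 and 48.7 CPM. Exporter, light chain and receptor messages were thus all higher in the first of the pair, by values given here without counting intervals or single libraries. Of its 201 cells 152 came from 4T1m, and of the 219 cells of the other 181 did. A monocytic-like cluster of 112 cells led by Cd163, the receptor for haptoglobin-hemoglobin complexes, held 21.8 CPM of Slc40a1 and 29.4 CPM of Tfrc, the highest of the monocytic-like clusters for each though not beyond the counting interval of the next, and 13307 CPM of Fth1, the lowest.

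Between the libraries, the ferritin light chain was lower and the exporter higher in 4T1m than in 4T1p in both lineages. The monocytic-like levels of the exporter, 6.33 CPM in 4T1p and 13.2 CPM in 4T1m, lie near the 9.29 CPM limit of B and T cell-like cells pooled over both libraries. Only 1 B cell-like and 7 T cell-like cells came from 4T1p, and in those 7 the limit was 67.2 CPM. They give no measure of free RNA at the level of 4T1p. The part of free RNA in the monocytic-like difference between libraries was not tested. In monocytic-like cells, 2 of the 6 genes with at least 50 UMIs differed by at least 2-fold, against 9.48% of 9000 genes, and in granulocytic-like cells 1 of 6 did, against 10.7% of 4367 genes. Requiring a Ptprc UMI in each cell, as the study did, left 0 genes past 2-fold in monocytic-like cells, where the share of all genes past 2-fold is not given here. The median log2 ratio of 4T1m over 4T1p was 0.58 over the 6 genes and 0.12 over all genes in monocytic-like cells, and 0.33 and 0.08 in granulocytic-like cells.

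From the levels above, the log2 ratio of Ftl1 in 4T1m over 4T1p was -0.37 (-0.39 to -0.35) in monocytic-like and -0.69 (-0.72 to -0.65) in granulocytic-like cells. Within the 7 clusters that had 50 cells in each library it was -0.83 in cluster 3, -0.75 in cluster 0, -0.66 in cluster 2, -0.61 in cluster 1, -0.50 in cluster 5 and -0.21 in cluster 4. In cluster 7 it was 0.01 (-0.10 to 0.11), so that 6 of 7 clusters shared the direction. Fth1 differed little, with log2 ratios of -0.04 (-0.05 to -0.02) and -0.10 (-0.12 to -0.09) in the 2 lineages, and from -0.42 in cluster 0 to 0.34 in cluster 7. Fth1 per Ftl1 was higher in 4T1m in all 9 myeloid clusters.

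Slc40a1 had log2 ratios of 1.06 (0.44 to 1.71) in monocytic-like cells, on 29 UMIs in 4T1p and 92 in 4T1m, and 1.01 (0.62 to 1.42) in granulocytic-like cells, on 60 and 460. Cluster 2 gave the widest gap, 69.7 CPM against 254 CPM, log2 ratio 1.87 (1.06 to 2.80), while the intervals of cluster 3, 0.39 (-0.33 to 1.16), and cluster 1, 0.34 (-0.62 to 1.43), held 0. The granulocytic-like value lay so near 2-fold that several other settings took it below. Tfrc had a log2 ratio of 1.17 (0.59 to 1.79) in monocytic-like cells. Within cluster 1, the only monocytic-like cluster with 50 Tfrc UMIs, it was -0.06 (-0.82 to 0.76). In the others, on 3 to 32 UMIs, it was above 0, at 1.44 (0.28 to 2.74) in cluster 5, 3.12 (0.36 to 8.53) in cluster 7, 1.67 (-0.60 to 4.92) in cluster 0 and 2.16 (-2.11 to 8.04) in cluster 4. In granulocytic-like cells Tfrc had 0.17 (-0.48 to 0.88), and in cluster 2 1.15 (-0.06 to 2.66) on 6 and 54 UMIs, intervals that held 0.

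Ireb2 was higher in monocytic-like cells of 4T1m, with a log2 ratio of 0.87 (0.43 to 1.33), and was so within cluster 1, 1.08 (0.17 to 2.14), and cluster 5, 0.83 (0.17 to 1.52). Slc11a1 had 0.28 (0.10 to 0.47) in monocytic-like and 0.54 (0.14 to 0.96) in granulocytic-like cells, where cluster 3 gave 0.95 (0.33 to 1.63). Steap4 in granulocytic-like cells had 0.49 (0.24 to 0.75), and 0.48 (0.12 to 0.86) in cluster 3. Over all clusters, 3 of 27 pairs of a gene and a cluster were past 2-fold: Ireb2 in cluster 1, where 7.55% of genes were, and Slc40a1 and Tfrc in cluster 2, where 12.1% were. In the clusters with no such gene, the shares of all genes past 2-fold were 10.1% in cluster 0, 13.7% in cluster 3, 7.23% in cluster 4, 8.69% in cluster 5 and 9.99% in cluster 7. Whether any difference between the libraries belongs to the tumor type or to the library cannot be told apart.

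**Figure D5:**
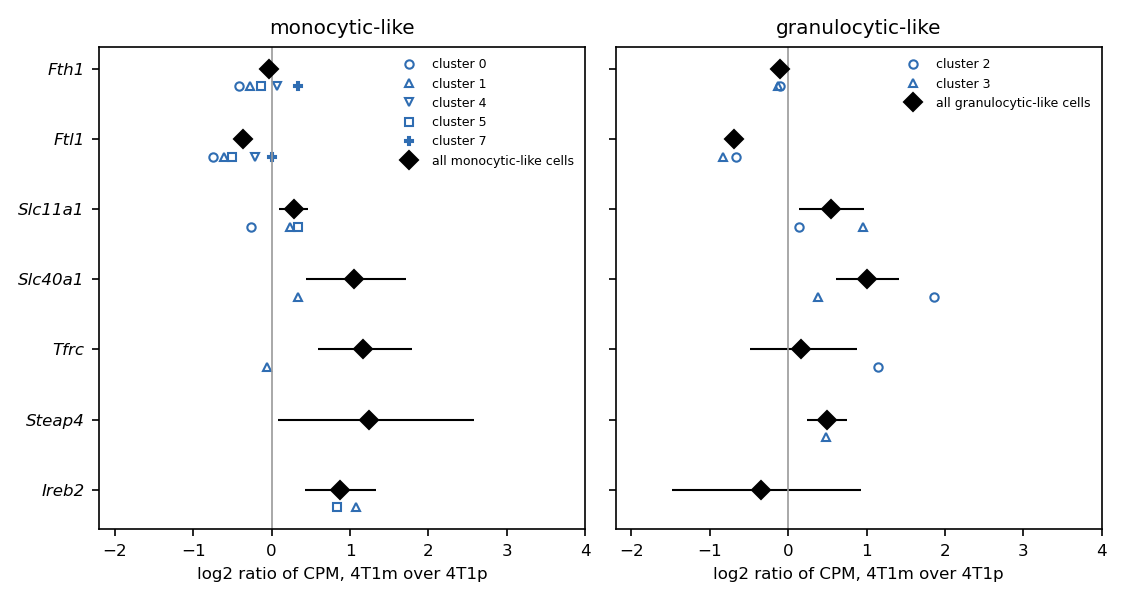
Log2 ratio of CPM in 4T1m over 4T1p for each gene, in monocytic-like (left) and granulocytic-like cells (right), as black diamonds with 95% intervals for all cells of the lineage and open blue marks for single clusters with at least 50 UMIs of the gene. Ftl1 lies left of 0 in both lineages and Slc40a1 right of 0, and the Tfrc mark of cluster 1, the only monocytic-like cluster with enough Tfrc UMIs to be drawn, lies near 0.

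The summed level of erythroid cell markers was higher in 4T1m in both lineages. The summed level of Hbb-bs, Hba-a1, Hba-a2 and Alas2 was 13.3 CPM in monocytic-like and 23.7 CPM in granulocytic-like cells of 4T1p, with 1 of the 4 at 0 in each, and 389.5 and 466 CPM in 4T1m, with none at 0. Such a UMI was held by 56 of 863 monocytic-like and 18 of 244 granulocytic-like cells of 4T1p. In 4T1m it was held by 89 of 993 and 59 of 1001. The share of cells thus differed far less than the level, and in granulocytic-like cells it was lower in 4T1m. Without the cells that held such a UMI, the log2 ratio of Slc40a1 was 1.21 in monocytic-like and 0.94 in granulocytic-like cells, that of Ftl1 -0.38 and -0.73, and that of Tfrc in monocytic-like cells 1.10. In monocytic-like cells the summed fibroblast markers (0.654 and 37.6 CPM in 4T1p and 4T1m) and dendritic cell markers (3.27 and 25.9 CPM) were also higher in 4T1m. No fibroblast marker was found in more than 1.11% of these cells of 4T1m, and no dendritic cell marker in more than 1.31%. Of the dendritic sum in 4T1m, 21.5 CPM was Ccr7, while Clec9a went the other way (1.31 and 0.572 CPM) and Siglech was at 0 in both. The summed epithelial or tumor cell markers were higher in 4T1p, at 31.8 and 12.7 CPM in monocytic-like and 16.2 and 7.85 CPM in granulocytic-like cells of 4T1p and 4T1m. In granulocytic-like cells Krt18 went the other way, at 3.74 and 5.89 CPM, and Krt14 was at 0 in both. The part of these 3 marker lists in the differences was not tested.

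The pathway list held 59 other genes, 4 of lipid peroxidation and the rest of iron, heme and iron-sulfur handling. Of these 59, 39 had 50 UMIs for the comparison of lineages in 4T1p and 42 in 4T1m. At least 2-fold higher in monocytic-like cells were 25 and 26 of them, and lower were 7 and 6, shares that compare with the 50.8% and 54.8% higher and 11.1% and 10.5% lower among all genes. Ltf and Lcn2, secreted proteins of iron defense, were higher in granulocytic-like cells, mostly in cluster 8. Over both libraries Ltf was 2973 CPM in cluster 8 and 13.8 to 27.0 CPM in clusters 2, 3 and 6. Lcn2 was 7939 CPM in cluster 8 and 748 to 2103 CPM in those clusters. Ltf, lactoferrin, had a log2 ratio of -9.99 (-11.44 to -8.86) in 4T1p and -8.91 (-9.87 to -8.11) in 4T1m, and Lcn2, which binds bacterial siderophores, -8.02 (-8.41 to -7.65) and -7.59 (-7.87 to -7.33). Hp, haptoglobin, which binds free hemoglobin, had -5.57 (-5.90 to -5.25) and -5.07 (-5.29 to -4.86).

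Receptors that take up hemoglobin and heme complexes lay on the other side. Cd163, the haptoglobin-hemoglobin receptor, had 5.79 (3.30 to 11.10) in 4T1p and 5.80 (3.93 to 8.85) in 4T1m, and Lrp1, the receptor for heme bound to hemopexin, 6.75 (4.27 to 12.06) and 6.35 (5.42 to 7.48). Haptoglobin message was thus higher in granulocytic-like cells and the message of its receptor in monocytic-like cells, the latter mostly in cluster 1. Over both libraries Cd163 was 109 CPM in cluster 1 and 3.34 to 12.01 CPM in clusters 0, 4, 5 and 7. Transferrin itself (Trf), a secreted iron carrier, was higher in monocytic-like cells of both libraries, 3.65 (3.28 to 4.05) in 4T1p and 3.42 (3.22 to 3.63) in 4T1m. So were the importers Slc39a14, 2.73 (0.83 to 5.80) and 5.85 (3.98 to 8.90), and Slc11a2, 2.09 (0.48 to 4.40) and 5.05 (3.49 to 7.34), with 2 and 3 granulocytic-like UMIs in each library. Hfe, which modulates iron sensing through Tfrc, had 4.36 (2.49 to 7.41) and 4.03 (2.88 to 5.49).

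Messages of proteins around IRP2 differed too. Fbxl5, the iron-sensing ligase subunit that marks IRP2 for degradation, stood at 524 and 1104 CPM in granulocytic-like cells of 4T1p and 4T1m, against 73.3 and 177 CPM in monocytic-like cells. Aco1, the message of IRP1, went the other way, with 20.1 and 25.9 CPM in monocytic-like against 2.50 and 1.31 CPM in granulocytic-like cells. Aco1 is named here as the other gene of its group, after its values were seen. Between libraries, Fbxl5 was higher in 4T1m in both lineages, 1.27 (1.10 to 1.45) in monocytic-like and 1.08 (0.93 to 1.23) in granulocytic-like cells.

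Of the 41 other genes with 50 UMIs in monocytic-like cells, 6 (2 of them of the lipid peroxidation group) were at least 2-fold higher and 1 lower in 4T1m, against 7.62% and 1.86% of all genes. The largest was Slc7a11, the cystine importer that feeds glutathione synthesis, at 1.81 (1.68 to 1.93), followed by Acsl4, which builds polyunsaturated phospholipids, at 1.29 (1.06 to 1.52), and the mitochondrial iron importer Slc25a37 at 1.23 (0.89 to 1.59). The importers Slc39a14 and Slc11a2 had 1.18 (0.81 to 1.57) and 1.03 (0.65 to 1.43). Lower in 4T1m was Cp, ceruloplasmin, the oxidase that works with ferroportin, at -1.16 (-1.54 to -0.78), and Cd163 had -0.92 (-1.17 to -0.68). Over both libraries cluster 1 held the highest monocytic-like level of Slc25a37 (56.4 CPM), Slc39a14 (48.8 CPM) and Slc11a2 (33.2 CPM). Cp was highest in cluster 5, at 41.1 CPM, and stood at 2.61 CPM in cluster 1. These ratios pool the monocytic-like clusters, and the part of the cluster mix in them was not tested. In granulocytic-like cells, 2 of 19 were higher and 0 lower, against 7.47% and 3.23%. Ltf had -0.69 (-0.79 to -0.58) there, a value that rests mostly on cluster 8, with 24 cells in 4T1p. Bach1, a heme-responsive repressor of ferritin genes and Hmox1, had 0.98 (0.51 to 1.48).

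Likeness of pattern was measured as Pearson's r of log2(CPM + 10) over the 16 groups of a cluster and a library with at least 50 cells, among 6209 genes. These groups share libraries, depth and cells of a lineage, so r is a description. Closest to Fth1 were Card19 (0.97), Eif1 (0.97) and Arg2 (0.94). Closest to Ftl1 were Aldoa, Bsg and Pfkl (0.93, 0.92 and 0.92), of which Aldoa and Pfkl encode enzymes of glycolysis. The ferritin genes thus had separate closest genes, with 0.61 between themselves. Slc40a1 was closest to Lysmd3 (0.96), Lyst (0.96) and Cdkn1b (0.96), and Steap4 to Klf3 (0.95), Cxcr2 (0.95) and Ifitm1 (0.94). Tfrc was closest to Ergic2 (0.93), Wipf2 (0.91) and Ptpn23 (0.88), Slc11a1 to Dock2 (0.87), Atp6v0a1 (0.86) and Kmt2d (0.84), and Ireb2 to Celf1 (0.84), Fam204a (0.84) and Ap3d1 (0.83). Among the 7 genes themselves, Slc40a1 and Steap4 were most alike (0.82) and Ftl1 and Slc11a1 least (-0.48).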

How the data were processed

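Transcripts of single cells were sequenced by 10x Genomics 3′ chemistry (version 3). The authors aligned reads to mm10 with Cell Ranger and deposited filtered matrices of UMI counts per gene and barcode, with no normalization. The matrix headers give software version 3.1.0, while the methods of the study name a later version of Cell Ranger. The labels give each library its tumor type.

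Barcodes with 250 to 5000 genes, at most 27000 UMIs and at most 12.5% mitochondrial UMIs were kept, and 57 with the highest Scrublet scores (1% per 1000 cells) were removed. Cells were clustered in Seurat 5.3.0 (SCTransform 0.4.2, R 4.3.3) with 11 principal components at resolution 0.8, without the 7 genes and 59 pathway genes. The study also required a Ptprc UMI, which is tried here as an alternative. UMIs were summed per group and given as CPM with exact Poisson intervals, and ratios with exact binomial ones (SciPy 1.17.1). Log2 ratios are of CPM, with a count of 0 taken as 3 counts and otherwise no pseudocount. A gene counts as different at 2-fold or more, among genes with at least 50 UMIs in both groups together. The calculation was tested on simulated data. Depth was 2066 and 2763 median UMIs per barcode.

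The 7 genes are named in full, and pathway genes by the largest log2 ratios, up to 8 a comparison, among those with at least 200 UMIs. Pathway symbols Flvcr1 and Flvcr2 were matched as Mfsd7b and Mfsd7c. The genes, lists and markers were chosen with earlier results of these data known.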

Additional observations from a re-analysis of the deposited data

How the results depend on the processing

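Among the recomputed counts, 72 stayed within 1.5 times the value above or within its error and 25 did not. Among the recomputed log2 ratios, 312 stayed within their error and 58 did not, and no ratio past 2-fold changed its direction. The counts of genes past 2-fold that moved follow, in order of setting. The number of genes with enough UMIs and the share of all genes past 2-fold can also change with the setting. They are not given here, so a lower count does not by itself show a smaller difference. Requiring a Ptprc UMI gave 0 between libraries in monocytic-like cells, 3 over monocytic-like clusters and 0 of 18 pairs within clusters. At most 5% mitochondrial UMIs gave 2 between lineages in 4T1p, 3 in 4T1m and 0 between libraries in granulocytic-like cells. Resolution 0.4 gave 1 over monocytic-like and 3 over granulocytic-like clusters. A total without ferritin, mitochondrial and ribosomal protein genes gave 3 between lineages in 4T1m and 0 between libraries in granulocytic-like cells. A mean over cells gave 3 between lineages in 4T1m and 1 between libraries in monocytic-like cells. Cells thinned to 1000 UMIs gave 2 and 3 between lineages in 4T1p and 4T1m, 0 between libraries in each lineage and 3 over monocytic-like clusters. A 1.5-fold limit gave 2 between libraries in granulocytic-like cells. A minimum of 200 UMIs gave 1 between lineages in 4T1p, 0 between libraries in monocytic-like cells and 3 over their clusters. Lineage by marker sums per cell gave 0 between libraries in granulocytic-like cells. Chosen after seeing the data, leaving out the clusters of few Ptprc UMIs gave 1 between libraries in monocytic-like cells and 1 over their clusters, and leaving out cells with an erythroid UMI gave 0 between libraries in granulocytic-like cells. Slc40a1 and Steap4 were past 2-fold between lineages wherever they had enough UMIs, with log2 ratios of -4.26 to -3.35 and -7.80 to -5.61. The cause of each change was not tested, beyond the fewer genes that a minimum of 200 UMIs or thinning leaves. No paired analysis was possible because each tumor type has 1 library, for which no replicate can be left out either. Low counts limit Tfrc, Ireb2 and monocytic-like Slc40a1 and Steap4.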

Other observations

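Heme oxygenase (Hmox1), which frees iron from heme, did not follow lineage. Over both libraries it stood at 1281 CPM in granulocytic-like cluster 2 and 1105 CPM in monocytic-like cluster 1, and at 169.6 CPM in cluster 8 and 166 CPM in cluster 4. Fbxl5 did follow lineage, with 911 to 1152 CPM over the 4 granulocytic-like clusters, and 36.3 to 250.3 CPM over the 5 monocytic-like clusters. The clusters given here were chosen after their values were seen.

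Barcodes above the mitochondrial limit, 443 in 4T1p and 560 in 4T1m, had a lower share of ferritin message among all UMIs than kept cells. All UMIs include the mitochondrial ones by which these barcodes were chosen, which by itself lowers the share of other genes. Fth1 stood at 10900.3 and 15542 CPM in these barcodes of 4T1p and 4T1m, against 26978 and 29167 CPM in kept cells. Slc40a1 was at 12.4 and 60.02 CPM, against 16.4 and 53.5 CPM.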
